A study of Homo sapiens with 4 samples.

Results

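The respiratory chain subunits described here are encoded in the nucleus, translated in the cytosol and imported into mitochondria. Gene names were taken where they began with NDUFA, NDUFB, NDUFC, NDUFS or NDUFV and a number, with UQCR, with COX4 to COX8 or with ATP5, or were NDUFAB1, CYC1 or one of SDHA to SDHD. This gave 81 of the 13300 gene names in the files. Of the 81, 77 encode subunits of complexes I to V, with COX7A2L, a factor of the supercomplexes, counted among them. The other names were ATP5S, whose product is not counted as a subunit here (mean 1.48 FPKM), and ATP5EP2, ATP5J2-PTCD1 and ATP5L2, a pseudogene, a readthrough and a gene copy with means below 1 FPKM. NDUFA4 was placed in complex IV, where its protein resides.

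KIAA1429 is a scaffold of the complex that methylates adenosine in mRNA (m6A), and the study asked which mRNAs it binds. RNA was immunoprecipitated from HCCLM3, a metastatic human hepatocellular carcinoma cell line, with an antibody against KIAA1429 (KIAA1429 RIP, 2 libraries) or with normal IgG as the background (IgG RIP, 2 libraries). The labels give no other treatment or genotype for either group. The values are FPKM (fragments scaled to transcript length and to the mapped fragments of a library), summed here over the listed transcripts of a gene. They are shares of a library without an input library beside them here, so that more of an mRNA in the cells and more of it in the precipitate cannot be told apart.

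Complexes I, III and IV pump protons across the inner mitochondrial membrane while electrons pass from NADH to oxygen, complex II feeds electrons from succinate into the chain, and complex V, the ATP synthase, uses the proton gradient to make ATP. Core subunits carry the redox centres or catalytic sites, and accessory subunits, which are mostly small proteins, surround and stabilise them. A few subunits are encoded by mitochondrial DNA, and the remainder are the products of the nuclear genes described here. Liver cells are rich in mitochondria, and hepatocellular carcinoma lines differ in how far they rely on them.

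The cell line label was checked against markers. The hepatocyte genes AFP (121 and 128 FPKM in IgG RIP, 99.1 and 115 FPKM in KIAA1429 RIP), ALB (53.5 and 68.8 FPKM, then 66.2 and 76.3 FPKM) and SERPINA1 (55.1 and 74.5 FPKM, then 62.7 and 62.6 FPKM) were listed in every library, as were the epithelial keratins KRT8 and KRT18. HNF4A was near 0, with a mean of 0.81 FPKM in IgG RIP and 0.57 FPKM in KIAA1429 RIP, and CDH1 was not among the listed genes. PTPRC and CD3E of leukocytes and 4 of 4 endothelial markers were not listed either. CD68, the most abundant of the leukocyte list, had 34.5 and 72.2 FPKM in IgG RIP against 28.7 and 43.9 FPKM in KIAA1429 RIP, and the fibroblast list was represented by COL3A1 alone, at 7.46 to 15.1 FPKM. The summed hepatocyte list was 509 and 475 FPKM in IgG RIP against 415 and 462 FPKM in KIAA1429 RIP. Most of that difference came from APOA2 (143 and 70.4 FPKM, then 55.8 and 65.0 FPKM), and the median log2 ratio of the 10 tested hepatocyte genes was -0.02, with 1 higher (10%, against 16.6% of all gene totals) and 3 lower (30%, against 15.2%) without overlap.

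Summed over the 77 genes, subunit mRNA came to 2996 and 3656 FPKM in the IgG RIP libraries and 5014 and 4864 FPKM in the KIAA1429 RIP libraries. Both KIAA1429 RIP sums lay above both IgG RIP sums, and the means were 3326 ± 467 and 4939 ± 106 FPKM (SD, n = 2 per group). The ratio of the means was 1.49, or 0.57 ± 0.21 on the log2 scale, where the error joins the SDs of both groups on the log2 scale (square root of the added variances). As a share of all listed FPKM, the subunits took 1.01% and 1.16% in IgG RIP against 1.49% and 1.43% in KIAA1429 RIP. The plot of sums by complex gives the same comparison for complexes I to V.

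**Figure D1:**
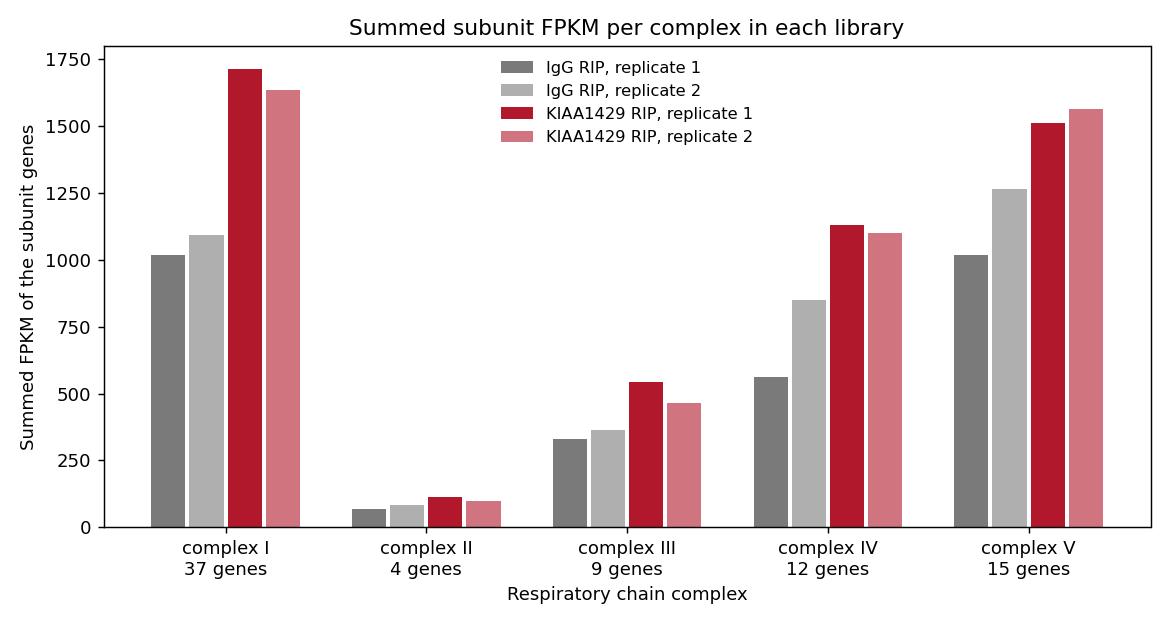
Summed FPKM of the subunit genes of each respiratory chain complex (vertical axis, from 0) in each of the 4 libraries, with IgG RIP in grey and KIAA1429 RIP in red and replicate 2 in the paler shade. In each complex both KIAA1429 RIP bars stand above both IgG RIP bars; for complex IV the IgG RIP replicates lie farthest apart, at 561 and 850 FPKM.

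No subunit passed the test. With limma on log2(FPKM + 1) over the 11361 gene totals with a mean of at least 1 FPKM, where a call is an adjusted p under 0.05 and a log2 fold change beyond 1, 0 of 77 subunits were called higher and 0 lower, against a background of 0% of all gene totals in each direction. The lowest adjusted p was 0.899 among the subunits and 0.515 among all gene totals. At an unadjusted p under 0.05, 21 of 77 subunits were higher and 0 lower, against 3.17% of all gene totals higher and 1.43% lower. For a gene measured 2 against 2, the smallest p that exact permutation allows is 0.333.

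The subunits are therefore described by their values and by whether the groups overlapped. Both KIAA1429 RIP values lay above both IgG RIP values in 47 of 77 subunits (61.0%), against 16.6% of all gene totals, and both lay below in 1 of 77, against 15.2%. That 1 gene was NDUFS4. The groups overlapped in the other 29. The median log2 ratio of group means was 0.57 over the subunits and 0.01 over all gene totals, and 53 of the 77 lay above 0.33, the upper quartile of all gene totals. A log2 ratio above 1 was found in 13 subunits (4.89% of all gene totals), and one below -1 in 0 subunits (3.5% of all gene totals). The ratio was above 0 in 72 subunits (71 by the limma fold change), and those below 0 included NDUFS7, NDUFS4, UQCRC1 and NDUFA10.

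The FPKM as deposited summed to 295573 and 315446 in the IgG RIP libraries and to 337041 and 340300 in the KIAA1429 RIP libraries. Dividing each library by its sum moved the median limma fold change of all gene totals from 0.02 to -0.11 on the log2 scale. On that scale 39 subunits were higher and 5 lower without overlap, against 11.2% and 21.5% of all gene totals, and the median log2 ratio was 0.44 over the subunits and -0.13 over all gene totals.

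Over the subunits, replicates of a group differed less than libraries of different groups, which was not so over all gene totals. The median absolute log2 difference over the 77 genes was 0.28 for the pair of IgG RIP replicates and 0.29 for the KIAA1429 RIP pair. Between the groups it was 0.71 and 0.70 for the KIAA1429 RIP replicates 1 and 2 against IgG RIP replicate 1, and 0.63 and 0.47 against IgG RIP replicate 2. Over all gene totals the IgG RIP replicates differed by 0.52, the KIAA1429 RIP replicates by 0.42, and libraries of different groups by 0.41 to 0.51. KIAA1429 RIP replicate 1 was above IgG RIP replicate 1 in 71 of the 77 genes and above IgG RIP replicate 2 in 59, against 47.2% and 56.6% of all gene totals. The corresponding counts for KIAA1429 RIP replicate 2 were 65 and 64, against 44.2% and 54.3%. IgG RIP replicate 2 was itself above IgG RIP replicate 1 in 48 of the 77 genes, while over all gene totals it was above in 41.4%.

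Complex I, the NADH dehydrogenase, was represented by 37 genes. Their sum was 1020 and 1094 FPKM in IgG RIP against 1715 and 1636 FPKM in KIAA1429 RIP, a log2 ratio of 0.66 ± 0.09. The median log2 ratio was 0.59. Without overlap, 21 genes were higher (56.8%, against 16.6% of all gene totals) and 1 was lower (2.70%, against 15.2%).

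The 7 nuclear core subunits of complex I, which hold its flavin and iron-sulfur clusters, had a median log2 ratio of 0.22, against 0.60 for its accessory subunits. The share higher without overlap was nearly the same, 4 of 7 (57.1%) against 17 of 30 (56.7%), and no difference between the classes was tested. NDUFV1 (chromosome 11, 67374323 to 67380006 on GRCh37), which binds FMN and NADH, had 37.1 and 34.7 FPKM in IgG RIP against 40.4 and 41.1 FPKM in KIAA1429 RIP. Its groups did not overlap, but the log2 ratio was only 0.18 ± 0.07. NDUFV2 and NDUFS1 carry iron-sulfur clusters of the same arm. NDUFV2 (chromosome 18, 9102628 to 9134343) had 31.7 and 20.5 FPKM, then 47.8 and 34.3 FPKM, a log2 ratio of 0.63 ± 0.54. NDUFS1 (chromosome 2, 206979541 to 207024327) had 18.2 and 9.83 FPKM, then 18.2 and 14.9 FPKM, so that its groups overlapped.

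NDUFS3, NDUFS7 and NDUFS8 belong to the part of the core that passes electrons to ubiquinone. NDUFS8 (chromosome 11, 67798094 to 67804111) had 34.7 and 47.7 FPKM in IgG RIP against 69.8 and 56.8 FPKM in KIAA1429 RIP, and NDUFS3 (chromosome 11, 47586888 to 47606114) had 16.4 and 13.6 FPKM, then 28.8 and 21.1 FPKM. Both were higher without overlap, at log2 ratios of 0.61 ± 0.38 and 0.70 ± 0.35. NDUFS7 (chromosome 19, 1383630 to 1395588) had 9.97 and 19.4 FPKM in IgG RIP against 6.76 and 10.1 FPKM in KIAA1429 RIP. Its groups overlapped narrowly, and its log2 ratio of -0.73 ± 0.73 was the lowest of the 77, and its limma fold change ran from -1.13 to -0.24 with 1 library left out.

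Among the accessory subunits, NDUFA6 of the matrix arm (chromosome 22, 42481529 to 42486959) had the largest ratio of complex I. It had 15.3 and 15.3 FPKM in IgG RIP against 41.9 and 41.4 FPKM in KIAA1429 RIP. Each pair of replicates lay close together and the groups were far apart, at a log2 ratio of 1.39 ± 0.01 (limma adjusted p = 0.899). NDUFA12, which docks at the same arm (chromosome 12, 95365108 to 95397546), had 56.3 and 39.4 FPKM, then 109 and 97.0 FPKM, a log2 ratio of 1.09 ± 0.37. NDUFA5, also in the matrix arm (chromosome 7, 123181083 to 123198309), was less abundant, with 7.88 and 4.30 FPKM, then 16.4 and 13.4 FPKM, a log2 ratio of 1.17 ± 0.56.

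NDUFA1 and NDUFA13 are small subunits of the membrane arm. NDUFA1 (chromosome X, 119005450 to 119010625), listed with 1 transcript, had 56.8 and 64.4 FPKM in IgG RIP against 110 and 102 FPKM in KIAA1429 RIP. NDUFA13 (chromosome 19, 19626564 to 19639863) had 49.1 and 42.7 FPKM, then 84.4 and 92.5 FPKM. Neither gene's groups overlapped, and the log2 ratios were 0.80 ± 0.15 and 0.93 ± 0.17. Over the 13 NDUFA genes of complex I, NDUFAB1 included, the median log2 ratio was 0.80. Of these 13, 8 were higher without overlap (61.5%, against 16.6% of all gene totals).

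NDUFB and NDUFC subunits sit in the membrane arm, around the antiporter-like subunits that mitochondrial DNA encodes. The 11 NDUFB genes had a median log2 ratio of 0.57 and 6 of 11 higher without overlap (54.5%, against 16.6% of all gene totals). NDUFB4 (chromosome 3, 120315156 to 120321347) had 36.0004 and 38.4 FPKM in IgG RIP against 93.6 and 87.4 FPKM in KIAA1429 RIP, NDUFB8 (chromosome 10, 102283497 to 102289757) had 29.2 and 22.7 FPKM, then 64.2 and 63.4 FPKM, and NDUFB11 (chromosome X, 47001615 to 47004903) had 15.6 and 24.1 FPKM, then 46.5 and 51.2 FPKM. In all 3 genes the lower KIAA1429 RIP value was far above the higher IgG RIP value, and the log2 ratios were 1.26 ± 0.09, 1.27 ± 0.25 and 1.26 ± 0.43 (limma adjusted p = 0.899, 0.901 and 0.981). NDUFB2 (chromosome 7, 140396472 to 140406446) had 54.9 and 59.1 FPKM, then 84.1 and 101 FPKM, a log2 ratio of 0.69 ± 0.20.

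NDUFC1 (chromosome 4, 140211071 to 140223680) shows how far a total can rest on the split between transcripts. Its total was 11.5 and 10.7 FPKM in IgG RIP against 26.0 and 28.4 FPKM in KIAA1429 RIP, a log2 ratio of 1.23 ± 0.11. In IgG RIP the whole total was given to ENST00000544855, in KIAA1429 RIP replicate 1 to ENST00000539002 (26.0 FPKM), and in KIAA1429 RIP replicate 2 almost all of it to ENST00000394225 (27.7 FPKM), which is of the type processed_transcript. Left to its protein_coding transcripts, NDUFC1 had a limma fold change of -0.83 on the log2 scale in place of 1.23.

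NDUFS5, the most abundant gene of complex I (chromosome 1, 39491990 to 39500308), had 75.8 and 68.8 FPKM in IgG RIP against 125 and 106 FPKM in KIAA1429 RIP, a log2 ratio of 0.67 ± 0.19. NDUFS4 (chromosome 5, 52856465 to 52979170), an accessory subunit near the NADH-oxidising end of the enzyme, was the exception in direction. It had 31.3 and 32.1 FPKM in IgG RIP against 21.3 and 28.0 FPKM in KIAA1429 RIP, a log2 ratio of -0.35 ± 0.27, and it is named here after its values were seen. NDUFA10, likewise named after its values were seen, had 14.8 and 14.1 FPKM, then 12.4 and 14.4 FPKM, so that its groups overlapped.

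**Figure D2:**
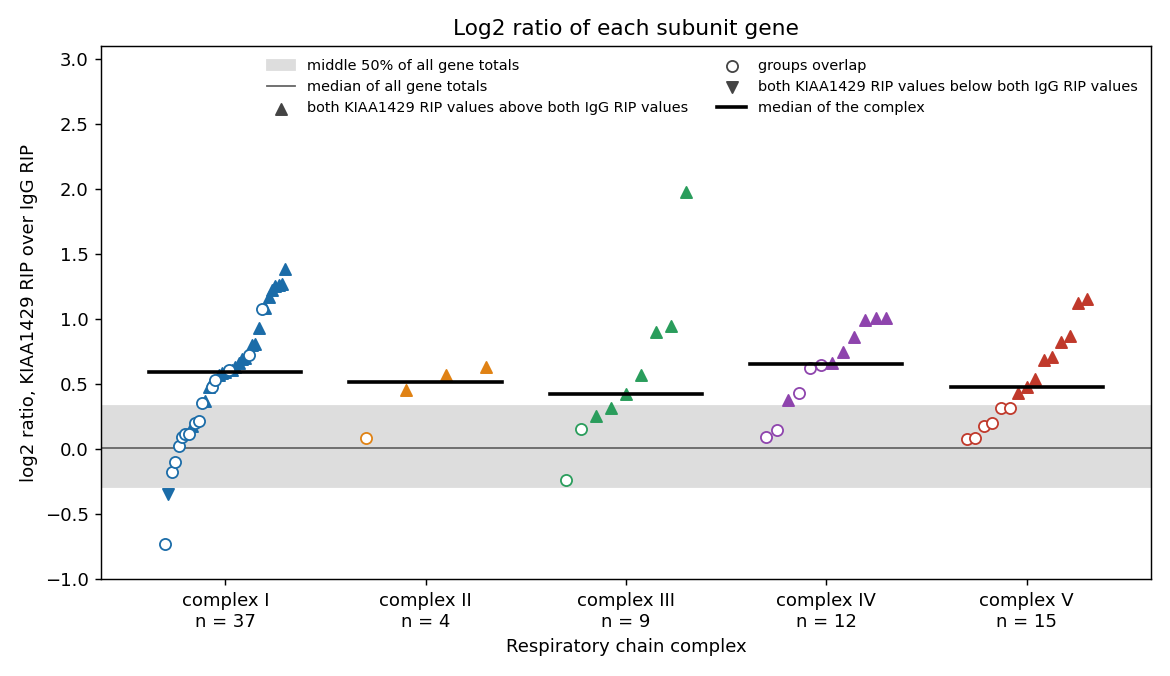
Log2 ratio of KIAA1429 RIP over IgG RIP group means for each subunit gene, by complex. Filled triangles mark genes whose groups did not overlap (pointing up, KIAA1429 RIP higher; pointing down, lower), open circles those whose groups overlapped, black bars the medians of the complexes (0.59, 0.51, 0.42, 0.65 and 0.48 from complex I to V) and the grey band the middle 50% of all gene totals, from -0.29 to 0.33.

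Complex II, succinate dehydrogenase, is the complex whose 4 subunits are all nuclear genes and which also works in the citric acid cycle. Its sum was the smallest, at 68.0 and 84.4 FPKM in IgG RIP against 113 and 98.4 FPKM in KIAA1429 RIP. The log2 ratio was 0.47 ± 0.26, and 3 of the 4 genes were higher without overlap (75%, against 16.6% of all gene totals). The flavoprotein SDHA (chromosome 5, 218356 to 256815) had 6.87 and 4.42 FPKM, then 9.44 and 9.18 FPKM, with a log2 ratio of 0.63 ± 0.38. The iron-sulfur protein SDHB (chromosome 1, 17345217 to 17380665) had 28.9 and 35.3 FPKM, then 52.0 and 44.2 FPKM, with a log2 ratio of 0.57 ± 0.26. SDHC and SDHD anchor the complex in the membrane and bind its haem. SDHD (chromosome 11, 111957497 to 111966518) had 16.3 and 27.8 FPKM, then 31.8 and 29.3 FPKM, with only a narrow gap between the groups. SDHC (chromosome 1, 161284047 to 161345130) had 16.02 and 16.96 FPKM, then 19.4 and 15.7 FPKM, and its groups overlapped. SDHA has pseudogenes of nearly the same sequence, and how reads were divided among them was not stated for these files.

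Complex III, the cytochrome bc1 complex, was represented by 9 genes, with a median log2 ratio of 0.42. In this complex 7 genes were higher without overlap (77.8%, against 16.6% of all gene totals). Its nuclear redox subunits had small ratios with little spread. Cytochrome c1, CYC1 (chromosome 8, 145149930 to 145152428), had 43.5 and 51.8 FPKM in IgG RIP against 57.1 and 56.7 FPKM in KIAA1429 RIP, and the Rieske protein UQCRFS1 (chromosome 19, 29696228 to 29704448) had 17.6 and 18.7 FPKM, then 24.4 and 21.1 FPKM. Both were higher without overlap, at log2 ratios of 0.25 ± 0.18 and 0.31 ± 0.15.

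UQCRB, which lies close to the ubiquinone site (chromosome 8, 97238148 to 97247862), had the largest ratio of all 77 genes. It had 5.53 and 6.55 FPKM in IgG RIP against 17.9 and 35.5 FPKM in KIAA1429 RIP, a log2 ratio of 1.98 ± 0.69 (limma adjusted p = 0.899). The KIAA1429 RIP replicates were themselves far apart. Of the 35.5 FPKM in replicate 2, 25.2 were given to ENST00000518406, which was listed at 0 in the other 3 libraries. The longer ENST00000287022 had 5.53 and 6.55 FPKM in IgG RIP against 17.9 and 8.63 FPKM in KIAA1429 RIP, so that the groups of this transcript did not overlap either.

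The small subunits UQCRQ and UQCR10 support cytochrome b and cytochrome c1. UQCRQ (chromosome 5, 132202252 to 132203723) had 41.4 and 50.1 FPKM in IgG RIP against 98.4 and 80.3 FPKM in KIAA1429 RIP, and UQCR10 (chromosome 22, 30163358 to 30166402) had 30.6 and 38.1 FPKM, then 72.5 and 57.2 FPKM. Neither gene's groups overlapped, and the log2 ratios were 0.95 ± 0.28 and 0.90 ± 0.32. The hinge protein UQCRH (chromosome 1, 46769303 to 46782448), the most abundant member of the complex, had 94.4 and 77.6 FPKM, then 151 and 105 FPKM, a log2 ratio of 0.57 ± 0.42. The matrix-side core protein UQCRC1 (chromosome 3, 48636436 to 48647470) had 42.2 and 51.5 FPKM, then 47.0 and 32.2 FPKM, so that its groups overlapped at a log2 ratio of -0.24 ± 0.43.

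Complex IV, cytochrome c oxidase, takes its catalytic core from mitochondrial DNA, and its 12 nuclear genes here encode subunits around that core. Their sum was 561 and 850 FPKM in IgG RIP against 1132 and 1099 FPKM in KIAA1429 RIP, a log2 ratio of 0.66 ± 0.42, the widest error of the complexes because the IgG RIP replicates lay far apart. The median log2 ratio was 0.65, the highest of the complexes. Without overlap, 7 of 12 genes were higher (58.3%, against 16.6% of all gene totals). None of the isoforms known from particular tissues or conditions (COX4I2, COX6A2, COX6B2, COX7A1, COX7B2, COX8C and NDUFA4L2) was among the listed genes.

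COX4I1 and COX5A are among the subunits through which complex IV is regulated, and COX5B binds zinc. COX4I1 (chromosome 16, 85833218 to 85840650) had 45.3 and 43.2 FPKM in IgG RIP against 114 and 63.9 FPKM in KIAA1429 RIP, a log2 ratio of 0.99 ± 0.58. COX5A (chromosome 15, 75212132 to 75230509) had 31.6 and 37.3 FPKM, then 51.8 and 38.5 FPKM, and COX5B (chromosome 2, 98262503 to 98264846) had 31.1 and 61.4 FPKM, then 50.7 and 74.9 FPKM. COX4I1 and COX5A were higher without overlap, COX5A narrowly, and the groups of COX5B overlapped.

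The small membrane subunits COX7C and COX6C had larger ratios with less spread. COX7C (chromosome 5, 85913721 to 85916779) had 86.3 and 95.7 FPKM in IgG RIP against 192 and 176 FPKM in KIAA1429 RIP, and COX6C (chromosome 8, 100890094 to 100906290) had 25.2 and 24.6 FPKM, then 53.7 and 48.8 FPKM. Both came to a log2 ratio of 1.01, with errors of 0.14 and 0.10. NDUFA4 (chromosome 7, 10971578 to 10979883) had 14.9 and 18.6 FPKM, then 36.9 and 25.8 FPKM, a log2 ratio of 0.86 ± 0.41. COX8A (chromosome 11, 63742079 to 63744015), the most abundant gene of the complex, had 114 and 154 FPKM, then 239 and 185 FPKM, a log2 ratio of 0.66 ± 0.41. COX7A2 (chromosome 6, 75947400 to 75953725) had the smallest ratio, 0.09 ± 0.77, from 26.9 and 49.6 FPKM, then 31.4 and 50.2 FPKM; replicate 2 was the higher in both groups.

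Complex V, the ATP synthase, was represented by 15 genes, which the files list under older symbols. Their sum was 1018 and 1265 FPKM in IgG RIP against 1513 and 1566 FPKM in KIAA1429 RIP, a log2 ratio of 0.43 ± 0.22. Of the 15 genes, 9 were higher without overlap (60%, against 16.6% of all gene totals). The 5 genes of the catalytic F1 head and its stalk had a median log2 ratio of 0.32, with 2 of 5 higher without overlap, against 0.61 and 7 of 10 for the membrane sector and peripheral stalk; this difference was not tested.

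The alpha and beta subunits of the F1 head had overlapping groups. ATP5B (now ATP5F1B; chromosome 12, 57031959 to 57039852), the most abundant of the 77 genes, had 268 and 235 FPKM in IgG RIP against 309 and 261 FPKM in KIAA1429 RIP. ATP5A1 (now ATP5F1A; chromosome 18, 43660214 to 43684199) had 61.9 and 103 FPKM, then 66.2 and 139 FPKM. Of the 139 FPKM of ATP5A1 in KIAA1429 RIP replicate 2, 89.3 were given to ENST00000590665, which was listed at 0 in the other 3 libraries. ATP5E (now ATP5F1E; chromosome 20, 57600522 to 57607437), the small epsilon subunit of the stalk, stood apart from these, with 12.9 and 15.3 FPKM, then 30.9 and 32.7 FPKM, a log2 ratio of 1.12 ± 0.17.

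In the membrane sector, ATP5I (now ATP5ME; chromosome 4, 666225 to 668127), the e subunit at the interface of synthase dimers, had 64.5 and 70.3 FPKM in IgG RIP against 141 and 161 FPKM in KIAA1429 RIP, the largest ratio of the complex at 1.15 ± 0.15 (limma adjusted p = 0.901). ATP5H (now ATP5PD; chromosome 17, 73034958 to 73043080), of the peripheral stalk, had 66.2 and 64.1 FPKM, then 118 and 114 FPKM, a log2 ratio of 0.82 ± 0.05. Replicates of both genes lay close together compared with the distance between the groups.

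ATP5G1, ATP5G2 and ATP5G3 encode the same mature protein, the c subunit of the proton-driven ring, behind different import sequences. ATP5G1 (now ATP5MC1; chromosome 17, 46970127 to 46973233) had 59.8 and 49.4 FPKM in IgG RIP against 100.1 and 100.5 FPKM in KIAA1429 RIP, a log2 ratio of 0.87 ± 0.19. ATP5G2 (now ATP5MC2; chromosome 12, 54058950 to 54071192) had 135 and 338 FPKM, then 255 and 243 FPKM, with both KIAA1429 RIP values between the IgG RIP values, and a log2 ratio of 0.08 ± 0.93, the smallest of the complex. The median of the 3 genes was 0.69, and 2 of the 3 were higher without overlap (66.7%, against 16.6% of all gene totals).

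Of the genes that encode subunits of the same synthase but fall outside the name rule, 2 nuclear genes had higher means in KIAA1429 RIP. USMG5 had 55.3 and 60.5 FPKM in IgG RIP against 176 and 127 FPKM in KIAA1429 RIP, a log2 ratio of 1.37, and C14orf2 had 23.2 and 53.0 FPKM, then 73.2 and 59.2 FPKM, a log2 ratio of 0.78. Both are named after their values were seen.

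The files listed 235 transcripts for the 77 genes, 197 of the type protein_coding and 38 of the type processed_transcript, with up to 7 for a gene. In 10 genes, 11 transcripts were listed at 0 in both libraries of a group while averaging 5 FPKM or more in the other, 10 of them at 0 in IgG RIP (4.26% of the subunit transcripts) and 1 at 0 in KIAA1429 RIP (0.426%). Over all 34975 listed transcripts these shares were 0.978% and 0.966%. Of the 10, only 3 were above 0 in both KIAA1429 RIP libraries, and 7 in 1 of them alone, against 170 and 172 of the 342 such transcripts among all listed. In complex I the largest such difference was ENST00000391762 of NDUFA3, at 0 in both IgG RIP libraries and at 27.2 and 10.1 FPKM in KIAA1429 RIP. The total of NDUFA3 (chromosome 19, 54606145 to 54612236), a membrane-arm subunit, was 15.2 and 17.4 FPKM, then 56.9 and 14.3 FPKM, and its groups overlapped in spite of a log2 ratio of 1.08; it is named here after its values were seen. The opposite case was ENST00000567270 of COX5A, with 8.92 and 8.37 FPKM in IgG RIP and 0 in both KIAA1429 RIP libraries, while ENST00000322347 of the same gene had 18.4 and 25.1 FPKM, then 44.7 and 35.0 FPKM. The 12 subunits with 1 listed transcript have no such split, and 9 of these 12 were higher without overlap, against 15.2% of the 3383 gene totals with 1 listed transcript, with a median log2 ratio of 0.58.

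Subunit mRNAs are short and abundant, so the ratio was also read by length and abundance. Lengths are those of the most abundant listed transcript of a gene in GENCODE v44 on GRCh37, fitted to the ends given in the files, because the release behind the files was not stated; 75 of 77 subunits had one. Of subunits under 700 bases, 18 of 21 were higher without overlap, against 24.2% of all gene totals of that length. From 700 to under 1500 bases it was 20 of 36, against 28.3%, and at 1500 bases or more 9 of 18, against 13.5%. The medians of the log2 ratio in these classes were 0.71, 0.50 and 0.31 for the subunits and 0.16, 0.23 and -0.03 for all gene totals. Of the 62 subunits with a mean of at least 20 FPKM, 42 were higher without overlap, against 20.9% of the 2762 gene totals at that level. Where both limits were applied, under 700 bases and at least 20 FPKM, it was 17 of 20 subunits against 44.5% of 220 gene totals. The median log2 ratios at both limits lay closer together, at 0.70 for these subunits and 0.54 for these gene totals. At 20 FPKM or more the medians were 0.55 and 0.29 from 700 to under 1500 bases. They were 0.31 and -0.02 at 1500 bases or more. Across genes, which are not independent replicates, Spearman's rho of the log2 ratio with length was -0.28 over 75 subunits and -0.20 over 11063 gene totals, and with mean FPKM it was 0.18 over 77 subunits and 0.07 over 11361 gene totals. These classes were chosen after the data were seen, and the part of length in the result was not tested further.

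**Figure D3:**
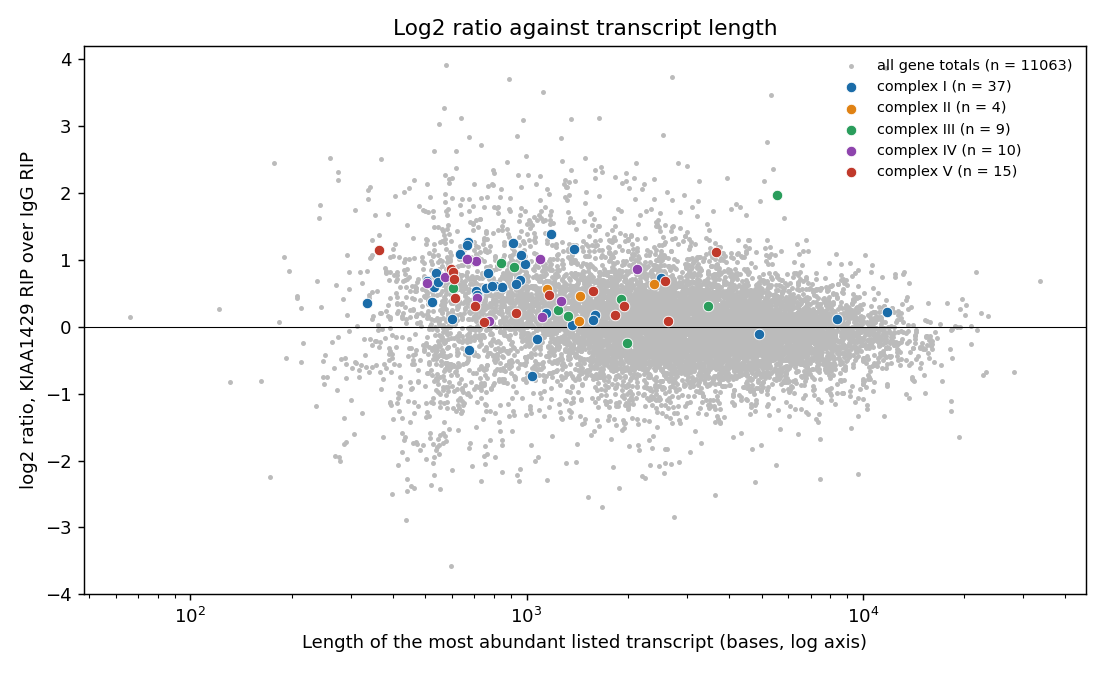
Log2 ratio of KIAA1429 RIP over IgG RIP group means (vertical axis) against the length of the most abundant listed transcript (bases, log axis), with 11063 gene totals in grey and 75 subunit genes coloured by complex. Most subunits lie above 0 at every length, and the grey cloud tilts downward with length.

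GGAC is a common form of the sequence in which m6A is made, and its A is the base that carries the methyl group. The sense strand of the most abundant listed transcript was searched as modelled in GENCODE v44, without moving its ends to those in the files. There GGAC was found in 69 of 75 subunits (92%) and in 98.5% of 11063 gene totals. Some models ran beyond the listed transcript, as in NDUFB5, with 4199 bases searched against a fitted length of 1141. Among transcripts under 700 bases it was found in 17 of 21 subunits (81.0%), against 85.5% of all gene totals of that length, and the median number per kilobase over all lengths was 3.63 in the subunits and 3.60 in all gene totals. The subunits without it in the searched model were NDUFB4, NDUFC1, NDUFA5, COX7C, COX8A and ATP5O. For some of these the model was shorter than the fitted length, so a GGAC in the unsearched ends would be missed. The bases searched were 756 against 932 in ATP5O, 629 against 666 in COX7C, 651 against 671 in NDUFB4 and 494 against 507 in COX8A. For NDUFC1 the sequence was that of ENST00000394225, which was listed above 0 in KIAA1429 RIP replicate 2 alone. The 6 without GGAC had a median log2 ratio of 1.09 and 5 of 6 higher without overlap, against 0.54 and 42 of 69 for those with it. Among all gene totals, 36 of 167 without GGAC and 1801 of 10896 with it were higher without overlap. Over all gene totals the medians were 0.15 without it and 0.01 with it, and under 700 bases -0.06 and 0.18, the other way round; no difference was tested. The match of these letters in a transcript model is a description and says nothing on methylation. The GGAC nearest to the stop codon is given, in capitals with 8 bases on either side, for some members of the complexes. The log2 ratios of these members ran from -0.73 (NDUFS7) to 1.39 (NDUFA6). Each window is the sense strand of GRCh37, 5′ to 3′, within 1 exon. That of NDUFA6 lies in exon 3 of 3, 85 bases before the end of the stop codon (chromosome 22, 42482264 to 42482283, minus strand). That of NDUFB8 lies in the UTR of exon 5, 33 bases after the stop codon (chromosome 10, 102283549 to 102283568, minus strand). That of NDUFS7 lies in the coding part of exon 7 of 8, 111 bases before the end of the stop codon (chromosome 19, 1393305 to 1393324, plus strand). Those of SDHA (chromosome 5, 254595 to 254614, plus strand), UQCRC1 (chromosome 3, 48637547 to 48637566, minus strand), UQCRQ (chromosome 5, 132203205 to 132203224, plus strand) and COX4I1 (chromosome 16, 85840442 to 85840461, plus strand) also precede the stop codon, and that of ATP5I (chromosome 4, 666255 to 666274, minus strand) lies 22 bases after it.
NDUFA6: gaagcagcGGACacatgtta
NDUFB8: tctaactaGGACtccctcat
NDUFS7: gtgcccgtGGACatctacat
SDHA: tcctatgtGGACgttggcac
UQCRC1: aggacatcGGACgcagcctc
UQCRQ: cacatgggGGACtgaagagt
COX4I1: tccaagtgGGACtacgaaaa
ATP5I: cactctttGGACcagcagcg

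The other genes of oxidative phosphorylation were read from lists. Of 17 assembly factors of complex I, which help to build the complex without staying in it, 7 were higher (41.2%, against 16.6% of all gene totals) and 3 lower (17.6%, against 15.2%) without overlap, with a median log2 ratio of 0.55. Their ratios ran from -1.08 in TMEM186 (5.97 and 11.5 FPKM in IgG RIP, 4.33 and 2.88 FPKM in KIAA1429 RIP) to 2.48 in TMEM126B (0 and 2.11 FPKM, then 10.03 and 10.95 FPKM). Of 36 assembly factors of complexes II to V, 11 were higher (30.6%) and 2 lower (5.56%), with a median of 0.32 and a range from -0.71 in UQCC1 to 1.59 in SDHAF3.

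Enzymes of the citric acid cycle and mobile electron carriers, which supply the chain, had a median log2 ratio of 0.24 over 17 genes, with 3 higher (17.6%, against 16.6% of all gene totals) and 0 lower without overlap. Cytochrome c, CYCS, had the largest ratio at 0.72 and SUCLA2 the smallest at -0.40, both with overlapping groups. Regulators of mitochondrial biogenesis had a median of 0.13 over 11 genes, with 2 higher (18.2%) and 1 lower (9.09%), near the 16.6% and 15.2% of all gene totals, from -0.34 in PPRC1 to 0.55 in TFB2M. PPARGC1A, the coactivator that drives the programme in liver, was not among the listed genes.

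The 13 subunits that mitochondrial DNA encodes, partners of the nuclear subunits in the same complexes, had overlapping groups in 13 of 13 genes. Their sum was 15540 and 32890 FPKM in IgG RIP against 20305 and 27781 FPKM in KIAA1429 RIP, so that both KIAA1429 RIP sums lay between the IgG RIP sums, and their median log2 ratio was 0.06. The ratios ran from -0.62 in MT-ND5 to 0.73 in MT-CO2. The IgG RIP replicates differed more in these RNAs than in the nuclear subunits, whose sums were 2996 and 3656 FPKM.

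For comparison, ribosomal protein mRNAs were read in the same way, beside 16.6% of all gene totals higher and 15.2% lower without overlap. Cytosolic ribosomal proteins had a median log2 ratio of 0.65 over 84 genes, with 62 higher and 0 lower without overlap, and mitochondrial ribosomal proteins a median of 0.34 over 78 genes, with 34 higher and 5 lower. Their adjusted p-values from limma did not go below 0.901 and 0.899. The subunits lay between these lists in median and in the share higher without overlap, at 61.0% against 73.8% and 43.6%, and no difference between the lists was tested.

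**Figure D4:**
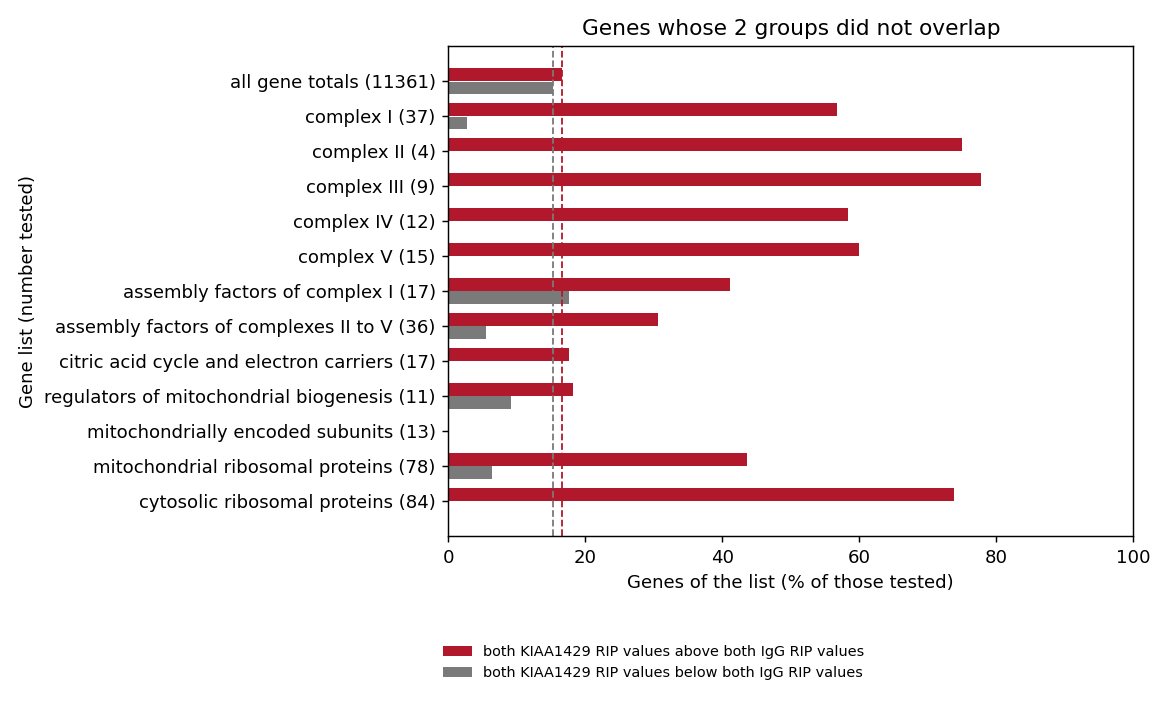
Percent of the genes of each list (number tested in brackets) whose KIAA1429 RIP values both lay above (red) or both below (grey) the IgG RIP values; dashed lines mark the shares over all gene totals, 16.6% and 15.2%. Complexes I to V and the cytosolic ribosomal proteins have the long red bars, and the mitochondrially encoded subunits have none.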

How the data were processed

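The authors aligned RIP-seq reads to GRCh37/hg19; the paper names HISAT2 for this and the submitters' processing notes name Bowtie2 2.1.0. The authors deposited FPKM per transcript for each of the 4 libraries; the tool, the annotation release, the use of strand and the handling of near-identical sequences are not given in the sources used here. Every library lists 34975 transcripts, the same in all. No counts are given, so the depth is unknown and precision was judged from the replicates. The paper describes its results in general as representative of separate experiments. It does not say whether these replicates came from separate cultures, so p-values measure only the spread between these samples.

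FPKM were summed per gene name. Totals with a mean of at least 1 FPKM (11361) were compared on the log2(FPKM + 1) scale by limma 3.58.1 under R 4.3.3 (trend, two-sided, Benjamini-Hochberg adjustment over all totals); fold changes are on that scale, which understates those of low genes. The fit was tested on simulated data, where, at the spread of these libraries, it missed differences as large as any seen among the subunits, so the absence of calls does not show equal values. Log2 ratios are those of group means with 1 FPKM added. Other values were computed with scipy 1.17.1, pandas 2.3.3 and numpy 2.4.6 (Python 3.11.15). Transcript lengths and sequences came from GENCODE v44 on GRCh37. For the lengths, exon ends were moved to the ends in the files where these differed, with extension limited. The sequences searched for GGAC were left as in GENCODE v44.

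Members and lists were chosen with earlier results of these data known. Genes named were a list of redox genes, the F1 alpha and beta subunits, and SDH, COX4 and COX5 genes. In each complex the most abundant gene and those with the largest and smallest ratio were added. Genes with an unadjusted limma p under 0.05 were added too. This gave 43 genes, and others are marked. Alternatives were pseudocounts of 0.1 and 0.01, no filter or one at 5 FPKM, 3 scalings, protein_coding or most abundant transcripts only, a replicate block, limma without trend and each library left out.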

Additional observations from a re-analysis of the deposited data

How the results depend on the processing

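No subunit was called under any of 16 alternatives. The absence of calls says little for the main fit, which missed simulated differences as large as any seen among the subunits. The lowest adjusted p of a subunit from limma was 0.0907, with the replicate block. With all 4 libraries kept, between 14 and 30 subunits had an unadjusted limma p under 0.05, against 21 in the main fit. The share of all gene totals at that p is given here for the main fit alone. With the replicate block, 0 subunits were called higher and 0 lower, while 12 of all gene totals were called higher and 1 lower; the samples share only a number, and the deviations of same-numbered libraries correlated at 0.19 over 11361 gene totals and 0.24 over the subunits. With the block and division by the library sum, chosen after seeing the data, 0 of all gene totals were called higher and 0 lower. Thus 0 subunits were called, and their lowest adjusted p from limma was 0.389.

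Subunits lower without overlap numbered 5 after division by the library sum and 2 with the most abundant transcript, against 1. With 1 library left out, where the other group alone gives the spread and fewer values make overlap rarer, they were from 4 to 7 (29.3% to 37.8% of all gene totals) and those higher from 53 to 63 (29.4% to 40.2%): 7 without IgG RIP replicate 1, 4 without IgG RIP replicate 2, 5 without KIAA1429 RIP replicate 1 and 4 without KIAA1429 RIP replicate 2. The median log2 ratio was 0.44 after division by the library sum and from 0.46 to 0.66 with 1 library left out. The cause was not tested.

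Of 688 fold changes of named genes, 671 kept their direction without a call and 17, of 9 genes that were not called, did not. After division by the library sum, with or without the replicate block, COX7A2 had -0.029 and SDHC -0.065; with quantile normalization, ATP5B had -0.052. Over protein_coding transcripts, NDUFC1 had -0.83. With the most abundant transcript, ATP5A1 had -0.70, NDUFV1 -0.30 and SDHC -0.35. Among others, some grew at that setting (NDUFB11 3.01, NDUFC1 2.42, COX4I1 1.64 and ATP5G2 1.40). Some shrank, among them UQCRB from 1.90 to 0.94, UQCR10 from 0.90 to 0.44 and NDUFS1 from 0.27 to 0.096. With 1 library left out, fold changes ran from -0.26 to 0.79 in ATP5A1, from -0.44 to 0.88 in ATP5G2, from -0.31 to 0.55 in COX7A2, from -0.14 to 0.69 in NDUFS1, from -0.068 to 0.22 in SDHC and from -0.52 to 0.011 in UQCRC1. Of genes that kept their direction, COX5B ran from 0.0059 to 0.96, SDHD from 0.13 to 0.87 and COX4I1 from 0.52 to 1.34. Further ranges that did not change sign with 1 library left out included ATP5B (0.054 to 0.30), COX5A (0.16 to 0.58) and CYC1 (0.13 to 0.38). The same held for NDUFV2 (0.34 to 0.95), NDUFS8 (0.39 to 0.84) and SDHA (0.39 to 0.93). Depth is unknown, so no limit for low values is given.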
